A study of Homo sapiens with 6 samples.

Results

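The genes examined were 10 members of the adenosine pathway, out of 30735 genes listed in the deposited tables. They were chosen by name, with earlier results of these data known. They encode the enzymes that make adenosine outside the cell (NT5E, which encodes CD73, and ENTPD1, which encodes CD39), the adenosine receptors (ADORA1, ADORA2A, ADORA2B and ADORA3), the enzymes that remove adenosine (ADA and ADK) and the transporters that move it across the membrane (SLC29A1 and SLC29A2). All 10 had a row in the tables. RNA-seq was available for PANC-1 cells, an established line derived from pancreatic ductal adenocarcinoma in a human, grown in DMEM with 10% fetal bovine serum. With a lipid transfection reagent in serum-free medium, 3 samples had been transfected with CD73 siRNA and 3 with a negative control siRNA. The study's methods give a single catalogue number for the CD73 siRNA, and neither its sequence nor the time from transfection to RNA extraction for sequencing is given in the sources used here. The study describes separate knockdown experiments, but nothing states that the samples came from separate cultures, so the p-values measure the spread between these samples, which may be technical.

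ATP released from cells is cut to AMP by CD39, and AMP is cut to adenosine by CD73, a GPI-anchored ectoenzyme. Adenosine then acts on G-protein-coupled receptors, of which ADORA1 and ADORA3 mainly lower cyclic AMP and ADORA2A and ADORA2B raise it. The signal ends when nucleoside transporters carry adenosine into the cell, where adenosine kinase (ADK) returns it to AMP, or when adenosine deaminase (ADA) turns it into inosine. In tumors this pathway is best known for dampening immune cells.

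The deposited values are RPKM, that is, read counts scaled to the length of the gene and the size of the library, with library totals between 15009113 and 16836207 reads per sample. KRT8 and KRT18, keratins of simple epithelia, were at 72.0 RPKM or more and 56.8 RPKM or more in the controls, whereas KRT7 was at 0.107 RPKM or less in every sample. Of the other cell types checked, none of the 4 acinar markers had a row, and CD3D, CD3E and CD2 had none either. No listed gene was at 0 in every sample, so a gene without a row may have had no reads. The summed myeloid, endothelial and islet markers reached at most 0.243, 0.0870 and 0.129 RPKM in any sample. The summed level of the 4 keratins KRT7, KRT8, KRT18 and KRT19 moved with the groups, at 70.2 to 99.4 RPKM after CD73 siRNA and 133 to 250.5 RPKM in the controls. The summed fibroblast markers were at 9.01 to 16.3 and 10.6 to 19.2 RPKM, almost all of it COL1A1. Whether the lower keratin level had a part in the differences below was not tested.

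In the control cells the members fell into a group of 6 genes above 9 RPKM in every sample and a group of 4 below 1 RPKM. SLC29A1, the main equilibrative nucleoside transporter (ENT1), was the highest, with 152.4, 141.7 and 148.6 RPKM in control replicates 1, 2 and 3 and a mean of 147.5 ± 5.43 RPKM (SD, n = 3). That level was higher than in 99.5% of all listed genes and 7.58 times that of the next member. The next places were taken by ADORA2B (19.5 ± 3.71 RPKM), ADK (16.2 ± 3.14 RPKM) and NT5E (15.0 ± 1.86 RPKM), whose ranges over the 3 control samples overlapped from one to the next. SLC29A2, the second equilibrative transporter (ENT2), and ADA followed at 11.3 ± 1.69 and 10.9 ± 2.30 RPKM, again with overlapping ranges. The range of SLC29A2 lay below that of NT5E.

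The low group began with ENTPD1 at 0.836 ± 0.102 RPKM, 5.58% of the level of NT5E. Next came ADORA1 at 0.483 ± 0.171 RPKM and ADORA2A at 0.0980 ± 0.0570 RPKM, and ADORA3 was listed at 0 in all 3 controls. From ADA downwards the ranges of neighbors did not overlap. Of the 4 adenosine receptors, ADORA2B, the receptor with the lowest affinity for adenosine, was the one above 1 RPKM. These levels are given per merged length of all annotated exons, and they describe mRNA only. That length was 6975 bases for ENTPD1, whose principal transcript has 2035, and 4533 bases for NT5E, whose principal transcript has 3548. For ADK these lengths were 3184 and 1169 bases, and for ADA 2852 and 1539. The order of the members, their ratios and the split at 1 RPKM can depend on this choice. Levels per principal transcript were not computed.

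**Figure D1:**
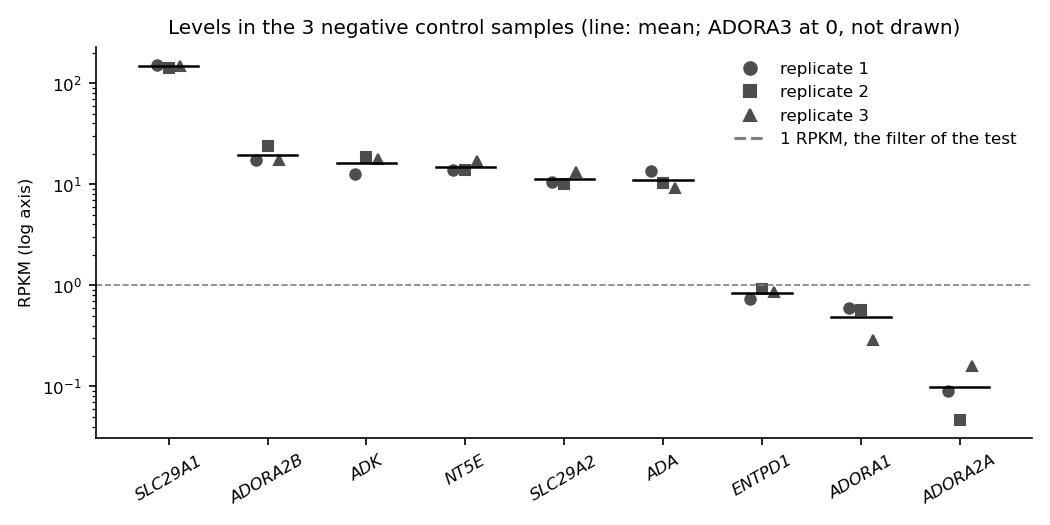
Expression of 9 adenosine pathway genes in the 3 negative control samples of PANC-1 cells, in RPKM on a log axis, with a marker for each replicate and a line for the mean. SLC29A1 stands at 147.5 RPKM, 5 genes lie between 10.9 and 19.5 RPKM, and ENTPD1, ADORA1 and ADORA2A lie below the dashed line at 1 RPKM, the lowest level admitted to the test across genes.

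The comparison of CD73 siRNA with the negative control asked which of these genes changed when CD73 was knocked down. The 12527 genes that reached 1 RPKM in 3 or more samples were compared on log2(RPKM + 1) with limma, without the replicate number. Calls were made at an unadjusted p below 0.01. Fold changes on this scale understate those of low genes. Of the 10 members, 6 passed this filter and 4 did not. Among the 6 tested, 1 gene, the targeted NT5E, was called, against 3.13% of all tested genes in either direction and 1.31% in the lower direction. No member had an adjusted p below 0.05 (limma, Benjamini-Hochberg over all tested genes), a limit that 0.00798% of the tested genes passed. By limma, 2 members had an unadjusted p below 0.05. The share of all tested genes with an unadjusted p below 0.05 was not counted. The counts at this limit, here and for the lists below, therefore have no background beside them. NT5E and ADA were the members whose groups did not overlap, 2 of the 6 tested, against 18.4% of all tested genes. None of the 4 members under the filter had separated groups, against 7.13% of all genes under it. With a block for the replicate number, NT5E was again the 1 member called, against 7.57% of all tested genes.

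**Figure D2:**
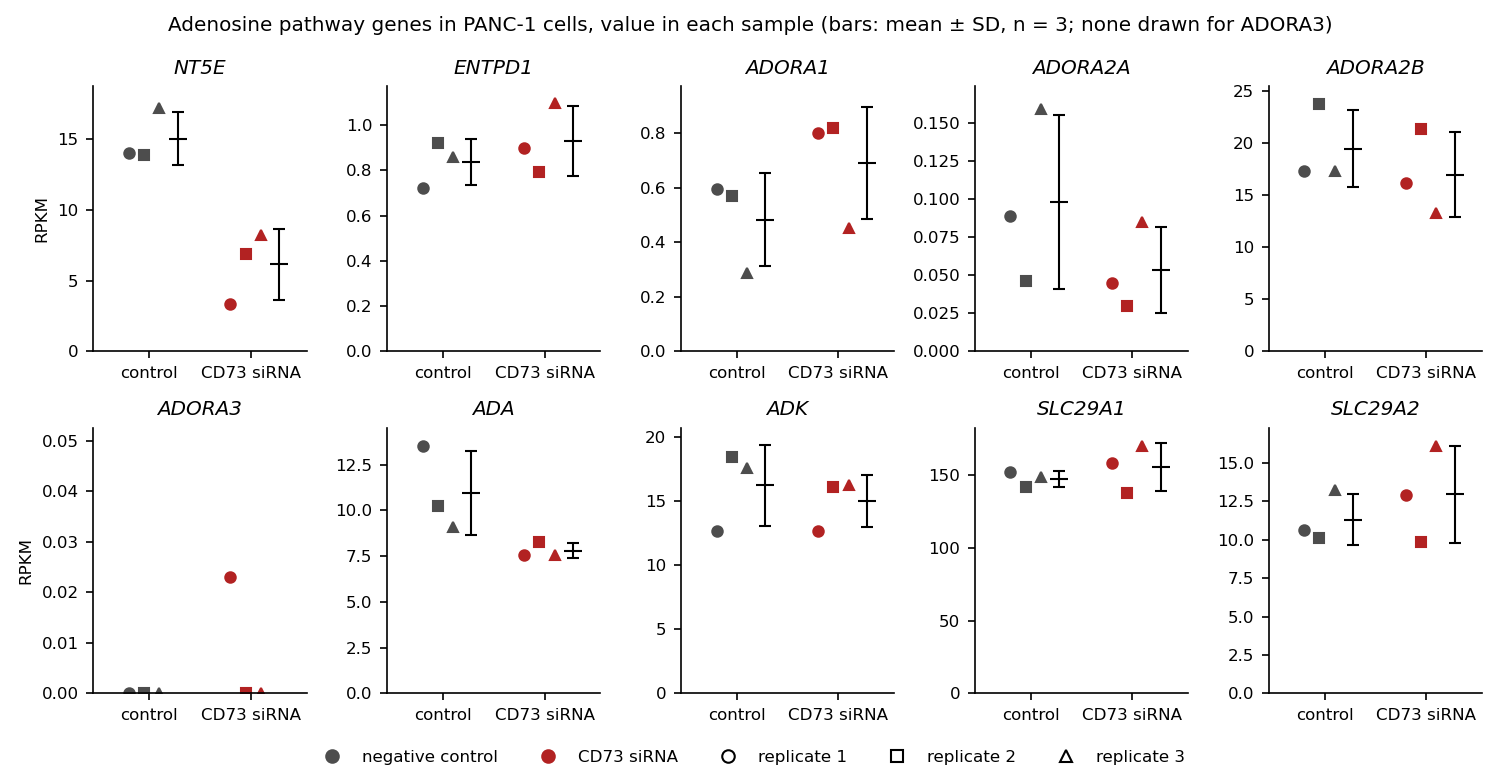
RPKM of the 10 adenosine pathway genes in each sample, with the negative control in grey, CD73 siRNA in red, a marker for each replicate number and bars for the mean ± SD (n = 3), except for ADORA3. NT5E and ADA are lower in all 3 CD73 siRNA samples than in all 3 controls, and the groups overlap in the other 8 genes.

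NT5E (ENSG00000135318, chromosome 6, 85449584 to 85495791, forward strand; this and all gene positions are from GRCh38, GENCODE release 29) fell in the cells given CD73 siRNA, which checks the labels. The 3 knockdown samples had 3.36, 6.85 and 8.22 RPKM in the order of their numbers, from 245, 489 and 627 reads, and the controls had 13.96, 13.87 and 17.1 RPKM, from 1015, 976 and 1166 reads. Replicate 1 had the deepest knockdown and replicate 3 the shallowest, and the highest CD73 siRNA sample was still well below the lowest control. The knockdown mean of 6.14 ± 2.50 RPKM was 41.0% of the control mean of 15.0 ± 1.86 RPKM (SD, n = 3 in each group). The difference in log2(RPKM + 1) was -1.23 (SE 0.26, 95% interval -1.82 to -0.63), with an adjusted p of 0.303 from limma. By a two-sided exact permutation test, the form used for single genes throughout, the p was 0.1, the smallest that 3 samples against 3 can give. Only 9 of the 12527 tested genes had a lower difference. In bulk RNA, fewer cells that express a gene and less RNA per cell cannot be told apart.

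The labels number both groups from 1 to 3, and samples with the same number deviated together. Within the numbers 1, 2 and 3, the difference of NT5E in log2(RPKM + 1) was -1.78, -0.92 and -0.98. Under a block for the replicate number the interval was -1.64 to -0.81, and the adjusted p from limma was 0.113. Without CD73 siRNA replicate 1, the difference was -0.90, and NT5E kept its call.

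The study also reports that miR-30a-5p directly targets CD73. It used transfected mimics and inhibitors, with CD73 mRNA and protein measured, and a luciferase reporter with the CD73 3′-UTR. Here the members were searched for matches to the seed of miR-30a-5p, of which only NT5E had any. The mature sequence from RefSeq (GRCh38.p14, 71403595 to 71403616 on the reverse strand of chromosome 6) has its seed, bases 2 to 8, in capitals. Below it, in capitals, are the 7 bases that pair with the seed within 29-base stretches of the NT5E 3′-UTR, read 5′ to 3′ from the GENCODE transcript. They are shown because these letters were found in NT5E and in none of the 3′-UTRs searched for the other members.
miR-30a-5p: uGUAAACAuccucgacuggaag
NT5E, chr6:85494321-85494349, forward strand: caaacagcttaTGTTTACataaaatttta
NT5E, chr6:85495435-85495463, forward strand: ttgtttcttagTGTTTACaaatattaagt
In both stretches the match is followed by an A. In the principal transcripts of the other 9 members, TGTTTAC was not found in the 3′-UTR, which ran from only 30 bases for ADK to 1505 bases for ADORA1. The 3′-UTR searched for NT5E was the longest of the 10, at 1774 bases, and a longer stretch has more room for a match. Neither this contrast nor the shares below were matched for length. Searched on the transcript strand, the 7 bases occurred in the 3′-UTR of 14.2% of 18905 protein-coding genes. With the A added, as TGTTTACA, the share was 7.01%. A match of letters is a description and not a proven site, and the microRNA itself was not measured in these tables.

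ENTPD1 (ENSG00000138185, chromosome 10, 95711779 to 95869695, forward strand), the enzyme that supplies CD73 with AMP, was low in every sample. It had 0.901, 0.792 and 1.10 RPKM after CD73 siRNA and 0.724, 0.923 and 0.860 RPKM in the controls, from 81 to 129 reads. The groups overlapped, with means of 0.931 ± 0.155 and 0.836 ± 0.102 RPKM (SD, n = 3 each; exact permutation test, p = 0.5). Per merged exon length, NT5E was 18.1 ± 2.67 times as abundant as ENTPD1 in the controls and 6.62 ± 2.57 times after CD73 siRNA (SD, n = 3 each). The size of this ratio depends on the lengths used. The ratio was 3.73, 8.65 and 7.48 in CD73 siRNA replicates 1, 2 and 3 and 19.3, 15.0 and 19.9 in the controls, without overlap.

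Among the receptors, ADORA2B (ENSG00000170425, chromosome 17, 15944917 to 15975746, forward strand) was not called. It had 16.2, 21.4 and 13.3 RPKM after CD73 siRNA and 17.4, 23.8 and 17.3 RPKM in the controls. Replicate 2 was the highest sample in both groups, and the groups overlapped. The difference in log2(RPKM + 1) was -0.20 (SE 0.19, 95% interval -0.63 to 0.24, adjusted p = 0.701 from limma). An effect between a loss to 0.645 of the control and a rise to 1.18 times it, on the RPKM + 1 scale, was within this interval. Within the numbers 1, 2 and 3 the difference was -0.09, -0.15 and -0.36, lower each time. Blocking on the replicate number gave an interval of -0.41 to 0.01 (adjusted p = 0.233 from limma).

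The other receptors were too low for the test across genes. ADORA1 (ENSG00000163485, chromosome 1, 203090654 to 203167405, forward strand) had 0.801, 0.819 and 0.454 RPKM after CD73 siRNA and 0.595, 0.569 and 0.286 RPKM in the controls, from 18 to 54 reads. Its groups overlapped (exact permutation test, p = 0.3), although the CD73 siRNA sample was the higher one within each replicate number, by 0.18, 0.21 and 0.18 in log2(RPKM + 1). Replicate 3 was the lowest sample of both groups.

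ADORA2A (ENSG00000128271, chromosome 22, 24417879 to 24442360, forward strand) rested on 2 to 10 reads per sample. It had 0.0445, 0.0303 and 0.0850 RPKM after CD73 siRNA and 0.0892, 0.0461 and 0.159 RPKM in the controls, with overlapping groups (exact permutation test, p = 0.2). The exact Poisson 95% interval of its highest control, 0.0762 to 0.292 RPKM, overlapped that of its highest CD73 siRNA sample, 0.0312 to 0.185 RPKM. Within the numbers 1, 2 and 3 the CD73 siRNA sample was the lower one, by 0.06, 0.022 and 0.095 in log2(RPKM + 1), from at most 10 reads in either sample. ADORA3 (ENSG00000282608, chromosome 1, 111499429 to 111503760, reverse strand) had 1 read in CD73 siRNA replicate 1 and was listed at 0 in the other 5 samples. By the usual one-sided limit of 3 reads for a count of 0, which is tighter than the two-sided Poisson intervals given for ADORA2A, those 5 samples allow up to 0.0663 to 0.0744 RPKM. These intervals and limits cover counting error only.

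ADA (ENSG00000196839, chromosome 20, 44619522 to 44652233, reverse strand), which removes adenosine by turning it into inosine, was the only member besides NT5E with separated groups. It had 7.57, 8.26 and 7.58 RPKM after CD73 siRNA and 13.5, 10.2 and 9.09 RPKM in the controls, from 347 to 618 reads. The CD73 siRNA samples were close together, and control replicate 1 stood highest. The means were 7.80 ± 0.399 and 10.9 ± 2.30 RPKM (SD, n = 3 each), or 71.3% of the control level, and the exact permutation test gave its smallest p, 0.1. The difference in log2(RPKM + 1) was -0.42 (SE 0.14, 95% interval -0.76 to -0.09, adjusted p = 0.353 from limma), and ADA missed the threshold for a call. Within the numbers 1, 2 and 3 it was -0.76, -0.28 and -0.23. Blocking on the replicate number gave an interval of -0.71 to -0.13, again without a call (adjusted p = 0.134 from limma). Without control replicate 3 the difference was -0.54, and ADA was then called (adjusted p = 0.460 from limma), which made 2 members called in place of 1. Without control replicate 1 it was -0.27. Groups that did not overlap, with the lower values after CD73 siRNA, were found in 8.07% of all tested genes.

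ADK (ENSG00000156110, chromosome 10, 74151185 to 74709303, forward strand), which returns adenosine to AMP inside the cell, had 12.7, 16.1 and 16.2 RPKM after CD73 siRNA and 12.6, 18.4 and 17.6 RPKM in the controls. Replicate 1 was the lowest sample in both groups, and there was nearly no difference between the samples numbered 1. The difference in log2(RPKM + 1) was -0.10 (SE 0.16, 95% interval -0.47 to 0.28, adjusted p = 0.846 from limma), and the sign turned, to 0.013, without CD73 siRNA replicate 1. Per merged exon length, ADK was 1.92 ± 0.234 times as abundant as ADA after CD73 siRNA and 1.56 ± 0.544 times in the controls (SD, n = 3 each). The size of this ratio, too, depends on the lengths used. The ratio was 1.68, 1.95 and 2.14 after CD73 siRNA and 0.935, 1.80 and 1.94 in the controls, so that the groups overlapped and control replicate 1 alone was below 1.

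The transporters were not called either. SLC29A1 (ENSG00000112759, chromosome 6, 44219505 to 44234151, forward strand) had 158.6, 137.8 and 170.3 RPKM after CD73 siRNA, on both sides of the controls. With 9559 to 12635 reads per sample, it was the most precisely counted member. Its difference in log2(RPKM + 1) was 0.07 (SE 0.10, 95% interval -0.17 to 0.31, adjusted p = 0.820 from limma). On the RPKM + 1 scale that interval runs from 0.889 to 1.24 times the control, the narrowest of the 6 tested members.

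SLC29A2 (ENSG00000174669, chromosome 11, 66362521 to 66372214, reverse strand) had 12.9, 9.83 and 16.1 RPKM after CD73 siRNA and 10.6, 10.1 and 13.3 RPKM in the controls. Its difference in log2(RPKM + 1) was 0.16 (SE 0.18, 95% interval -0.25 to 0.58, adjusted p = 0.738 from limma). Replicate 2 was the lowest and replicate 3 the highest in both groups, and the difference within the numbers 1, 2 and 3 was 0.26, -0.04 and 0.27. SLC29A1 was 12.3 ± 1.73 times as abundant per length as SLC29A2 after CD73 siRNA and 13.2 ± 1.73 times in the controls (SD, n = 3 each), with overlapping groups.

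Taken by replicate number, 3 of the 6 tested members (NT5E, ADA and ADORA2B) had a difference of the same sign within all 3 numbers, against 51.4% of all tested genes. All 3 were lower after CD73 siRNA, as were 24.5% of all tested genes.

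In the annotation, 10 other genes share exon bases with 7 of the members, and none does with NT5E, ADORA2B or SLC29A1. SPECC1L-ADORA2A, a readthrough gene, covers 56.8% of the exon bases of ADORA2A and had at most 1 read, and TMIGD3, which had no row in the tables, shares 484 bases with ADORA3. How the counting treated reads on bases shared between genes is not given in the sources used here. If such reads were left out, the counts of SPECC1L-ADORA2A and of ADORA2A are both too low. Antisense genes lie over ENTPD1 (ENTPD1-AS1, 454 bases), ADORA1 (AC105940.2), ADORA2A (ADORA2A-AS1), ADK (AC022540.1) and SLC29A2 (AP001107.9). ENTPD1-AS1 had 206 to 320 reads, more than ENTPD1, and without a stated strand setting the reads of such pairs cannot be told apart where they overlap. The remaining partners were PKIG over 46 bases of ADA, MRPL35P3 over ADK and AL365273.2 over ENTPD1.

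**Figure D3:**
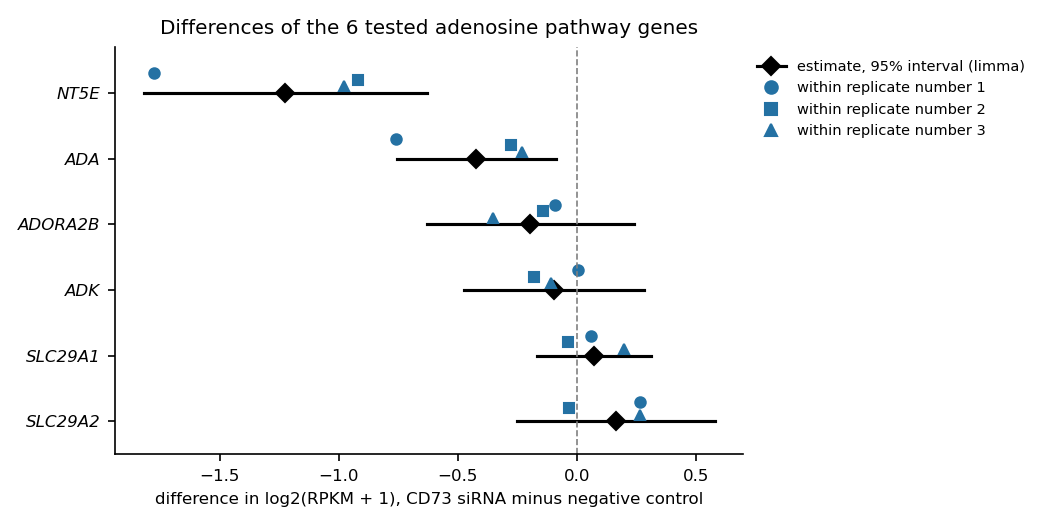
Difference in log2(RPKM + 1) between CD73 siRNA and the negative control for the 6 tested members, with the 95% interval from limma (black) and the difference within each replicate number (blue). The intervals of NT5E (-1.82 to -0.63) and ADA (-0.76 to -0.09) lie below 0, and the other 4 include it.

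The wider purine signaling network was described with 7 lists of 101 genes, of which 92 had a row and 51 could be tested. After CD73 siRNA 2 of the 51 were called, or 3.92%, close to the 3.13% of all tested genes. Both, GNAI2 and GNA11, were higher and encode G-protein alpha subunits. The median difference in log2(RPKM + 1) of the 51 was 0.04, and that of all tested genes was 0.01. Under a block for the replicate number, 5 of the 51 were called, against 7.57% of all tested genes.

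Of the other ectonucleotidases and phosphatases that make or consume extracellular AMP, 2 of 13 passed the filter, and neither was called by limma, nor had an unadjusted p below 0.05. ENPP1, which cuts ATP to AMP and pyrophosphate, was the highest at 3.39 ± 0.220 RPKM in the controls, and ENTPD8 and ENTPD2 were at 1.13 ± 0.0960 and 0.774 ± 0.249 RPKM. For ENPP1 the difference in log2(RPKM + 1) was -0.02, and for ENTPD8 it was 0.04. ALPL and ALPP, alkaline phosphatases that can also dephosphorylate AMP, were at 0.187 RPKM or less in every sample. The control level of each gene on this list was below that of NT5E.

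Nucleotidases inside the cell numbered 11, with 9 tested. None was called by limma, and 1 had an unadjusted p below 0.05. NT5C3B, ENTPD6 and NT5C2 were the highest in the controls, at 33.5 ± 1.49, 24.1 ± 3.80 and 13.7 ± 2.21 RPKM, and their differences in log2(RPKM + 1) were 0.11, -0.04 and -0.06. ENTPD4, a Golgi nucleotidase named here because its call changed, had a difference of 0.33 and was called only under the replicate block (adjusted p = 0.119 from limma).

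For other genes of adenosine removal and transport, 7 of 12 were tested. None was called by limma, and 1 had an unadjusted p below 0.05. AHCY, which releases adenosine from S-adenosylhomocysteine, was the highest at 60.2 ± 1.16 RPKM in the controls, followed by its relative AHCYL1 at 38.3 ± 2.24 RPKM and the transporter SLC29A4 at 11.3 ± 2.51 RPKM. Their differences in log2(RPKM + 1) were 0.02, 0.09 and -0.05. The concentrative transporters SLC28A1 and SLC28A2 were at 0.0240 RPKM or less in every sample, and ADA2, the secreted deaminase, at 0.0310 RPKM or less.

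SLC29A3, the lysosomal member of the same transporter family, is named because its call changed. It had 1.39, 0.852 and 1.28 RPKM after CD73 siRNA and 3.60, 1.49 and 2.36 RPKM in the controls, with separated groups. The difference in log2(RPKM + 1) was -0.64 (SE 0.23, adjusted p = 0.357 from limma), without a call. It was called under the replicate block (adjusted p = 0.113 from limma) and without control replicate 2 (difference -0.86, adjusted p = 0.107 from limma).

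The adenylate kinases, which interconvert AMP, ADP and ATP, gave 6 tested genes of 9. None was called by limma, nor had an unadjusted p below 0.05. AK6 and AK4 were at 9.66 ± 1.04 and 7.98 ± 1.87 RPKM in the controls, with differences in log2(RPKM + 1) of -0.24 and -0.19. The P2 receptors, through which ATP and other nucleotides act before they are broken down, were low. Only 4 of 17 were tested, none was called by limma or had an unadjusted p below 0.05, and all 4 had a lower mean after CD73 siRNA, while 52.0% of all tested genes had a higher one. P2RX4, P2RX5 and P2RY11 had differences of -0.14, -0.22 and -0.26, from control means of 2.69 ± 0.662, 2.11 ± 0.417 and 2.02 ± 0.443 RPKM.

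Channels and transporters listed for ATP release numbered 12, with 6 tested. None was called by limma, nor had an unadjusted p below 0.05. The connexin GJA1 was at 62.9 ± 14.5 RPKM in the controls, and its samples numbered 2 were the highest in both groups. The pannexin channel PANX1 and LRRC8A, a volume-regulated anion channel subunit, were at 21.7 ± 0.835 and 9.04 ± 1.19 RPKM. The differences of these 3 genes in log2(RPKM + 1) were -0.10, 0.09 and 0.16.

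The largest list held the G proteins, adenylyl cyclases and cyclic AMP effectors that act below adenosine receptors and many others, with 17 of 27 tested. Of these, 15 had a higher mean after CD73 siRNA, as did 52.0% of all tested genes, 2 were called, both higher (11.8%, against 1.82% of all tested genes), and the median difference in log2(RPKM + 1) was 0.22. By limma, 5 of the 17 had an unadjusted p below 0.05, and the share of all tested genes at that limit was not counted. In 7 of the 17 the groups did not overlap, in either direction, against 18.4% of all tested genes. GNAI2, an inhibitory subunit that lowers cyclic AMP, had 38.9, 30.6 and 35.1 RPKM after CD73 siRNA and 25.9, 24.4 and 25.8 RPKM in the controls. It rose by 0.44 (SE 0.11, adjusted p = 0.303 from limma), and the groups did not overlap. GNA11, a subunit that activates phospholipase C, had 16.8, 14.8 and 17.4 RPKM after CD73 siRNA and 10.4, 12.7 and 11.4 RPKM in the controls. It rose by 0.47 (SE 0.11, adjusted p = 0.303 from limma), also with separated groups.

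Both calls were lost in several fits with a single sample left out, which also have fewer samples to test with. Neither GNAI2 nor GNA11 was called without CD73 siRNA replicate 1, CD73 siRNA replicate 3 or control replicate 3, GNAI2 was also lost without control replicate 2, and GNA11 was lost without control replicate 1. Their differences stayed between 0.36 and 0.47 in these fits, and the unadjusted p from limma was between 0.011 and 0.018. GNAS, the stimulatory subunit used by ADORA2B, was the highest gene of the list at 31.6 ± 3.94 RPKM in the controls, with a difference of 0.08. PRKAR1A, a regulatory subunit of protein kinase A, was at 29.9 ± 2.66 RPKM in the controls with a difference of 0.34, and was not called (adjusted p = 0.346 from limma). GNAQ, a relative of GNA11, and ATF1, a transcription factor of the cyclic AMP response, had differences of 0.41 and 0.38 and were called only without control replicate 2, at 0.55 and 0.62 (adjusted p = 0.131 and 0.107 from limma). PRKAR2A, another regulatory subunit, had a difference of 0.44 and was called only under the replicate block (adjusted p = 0.121 from limma).

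**Figure D4:**
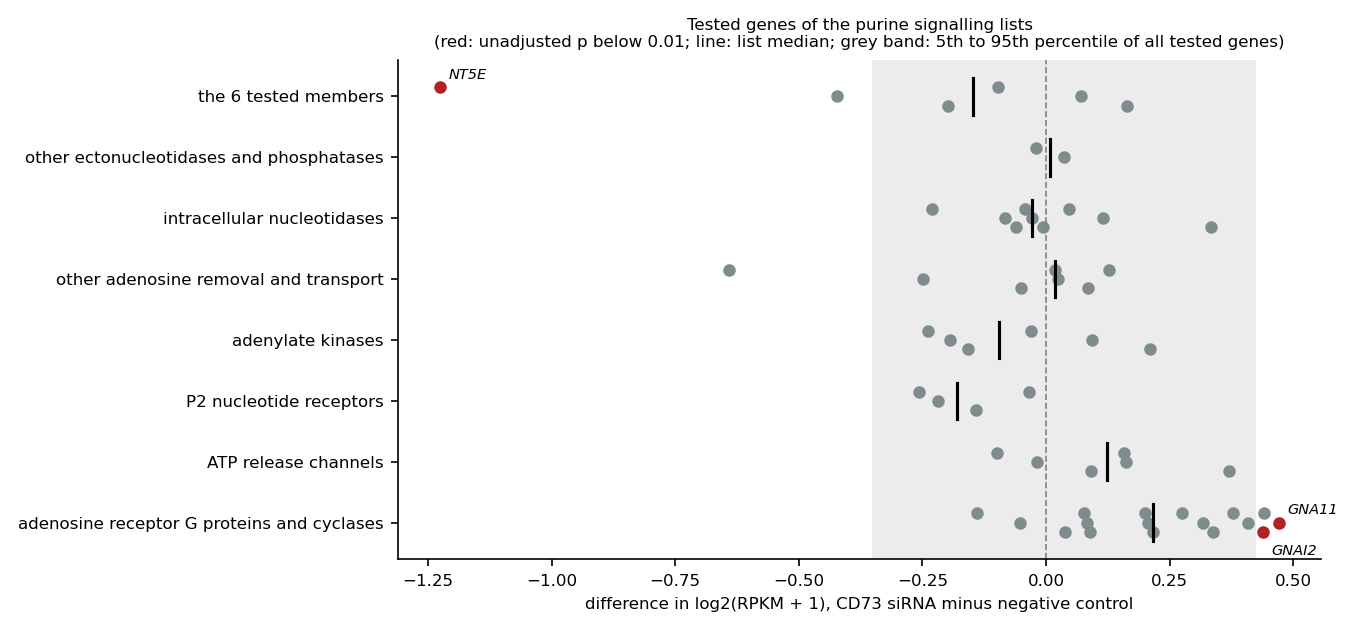
Difference in log2(RPKM + 1) between CD73 siRNA and the negative control for the 6 tested members and the 51 tested genes of 7 purine signaling lists, with red points for genes past an unadjusted p of 0.01, a line for the median of each row and a grey band from the 5th to the 95th percentile of all tested genes (-0.35 to 0.42). NT5E lies far to the left at -1.23, GNAI2 and GNA11 lie just beyond the right edge of the band, and the points outside it in grey are ADA, SLC29A3 and PRKAR2A.

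NT5E was also set beside all 7394 tested genes with a mean of at least 5 RPKM, by the distance between their log2(RPKM + 1) values over the 6 samples after subtraction of each gene's mean. The nearest were SLC30A6, a zinc transporter (distance 0.385), ITGA2, an integrin subunit (0.587), B2M, the light chain of HLA class I (0.587), GSR, glutathione reductase (0.601), and MFSD1, a lysosomal membrane protein (0.650). The median distance was 1.76. SLC30A6 had 5.06, 9.77 and 9.35 RPKM after CD73 siRNA and 16.4, 18.8 and 17.9 RPKM in the controls. Like NT5E, each of the 5 was lowest in CD73 siRNA replicate 1, and all 3 CD73 siRNA samples were below all 3 controls. This is a description over 6 samples that include the knockdown itself, and nothing follows from it about shared control.

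**Figure D5:**
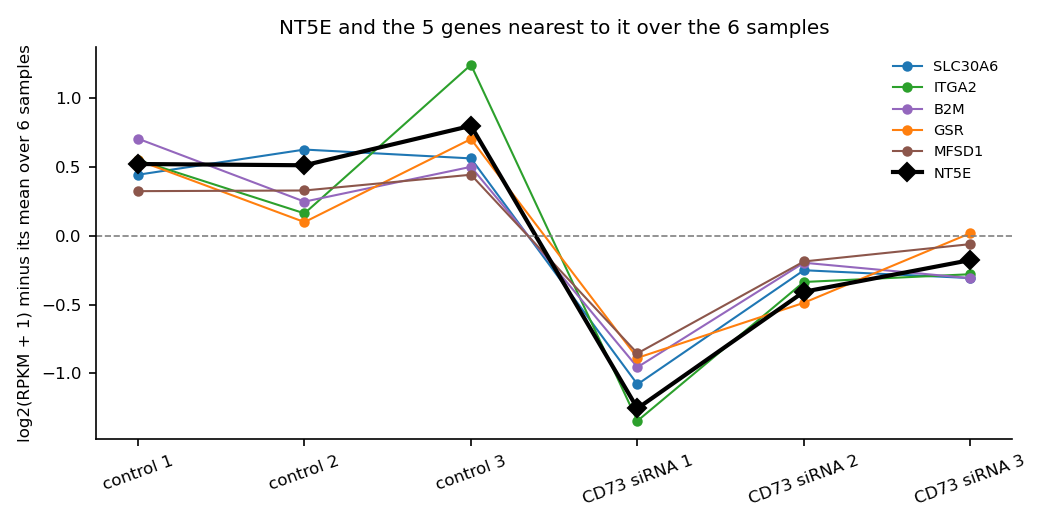
Values of NT5E (black) and of the 5 genes nearest to it in each of the 6 samples, as log2(RPKM + 1) minus the gene's mean over the samples. All 6 genes are above 0 in the 3 controls and lowest in CD73 siRNA replicate 1, and all are below 0 in CD73 siRNA replicates 2 and 3 except GSR, which is near 0 in replicate 3.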

How the data were processed

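RNA-seq of PANC-1 cells comprised 3 CD73 siRNA and 3 negative control samples, grouped by the sample labels. The authors deposited 1 table per sample with RPKM values. The unit was read from the values, since multiplied by the merged exon length of GENCODE release 29 they were whole multiples of 1 step per sample, within 0.01 reads, for 94.9% to 95.0% of values under 1000 reads. That step gave the library totals and reads. The submitters' processing notes name hg38, bcl2fastq, Bowtie2 2.2.3 and HTSeq 0.6.0. The annotation and strand setting are not given in the sources used here.

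Symbols were matched for 24436 of 30735 identifiers. Genes reaching 1 RPKM in 3 or more samples were compared on log2(RPKM + 1) in R 4.3.3 with limma 3.58.1 (lmFit, then eBayes with its trend option), and p-values were adjusted by the Benjamini-Hochberg method. The call rule was an unadjusted p below 0.01. Genes under the filter had an exact two-sided permutation test. The fit was tested on simulated data. Deviations from the group means correlated across genes at 0.197, 0.481 and 0.553 between samples numbered 1, 2 and 3. The label numbers were therefore taken to pair samples in the replicate block, which was run as an alternative. The main fit and the permutation tests did not use these numbers. Between different numbers the correlations were -0.00600 or lower. Subtracting the group means pushes these down when those of like numbers are positive, so they add no separate support.

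Named genes were all members, their exon-sharing partners, list genes that were called or among the 3 highest in the controls, and the 5 genes nearest to NT5E. 1 gene that this rule names is not reported here. ENTPD4, SLC29A3, PRKAR2A, GNAQ, ATF1, ALPL, ALPP, SLC28A1, SLC28A2 and ADA2 were added after their values were seen. The members and lists were chosen with earlier results of these data known. Alternatives were a pseudocount of 0.1, no filter, each sample left out, the replicate block, median-ratio scaling, no trend, and TPM for control levels.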

Additional observations from a re-analysis of the deposited data

How the results depend on the processing

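NT5E kept its direction and its call under every alternative run. Its difference in log2(RPKM + 1) ranged from -1.44 to -0.90 with single samples left out, and was -1.36 with a pseudocount of 0.1 and -1.25 with median-ratio scaling. The number of members called was 1, or 1 to 2 with single samples left out, the second being ADA without control replicate 3. The difference of ADK ranged from -0.26 to 0.013 with single samples left out, turning sign without CD73 siRNA replicate 1, and no other member changed sign. Those of ADORA2B, SLC29A1 and SLC29A2 ranged from -0.37 to -0.046, 0.0034 to 0.16 and 0.0035 to 0.33, each being nearest to 0 without CD73 siRNA replicate 3 and farthest without CD73 siRNA replicate 2, and none was called. Under a block for the replicate number, the genes called rose from 392 to 948 over all tested genes, from 2 to 5 over the 7 lists, from 0 to 1 among the intracellular nucleotidases and from 0 to 1 among the genes of adenosine removal and transport. It changed no call of a member. With single samples left out, the genes called over all tested genes fell to 116 when CD73 siRNA replicate 1 was dropped, 188 for control replicate 1 and 258 for control replicate 3, and reached 792 for control replicate 2. The counts ranged from 0 to 4 over the 7 lists, from 0 to 3 for G proteins and cyclases, and from 0 to 1 for adenosine removal and transport. The cause was not tested. The order of the 10 control levels was the same in TPM. That scale divides all genes of a sample by the same factor and cannot change their order within it, so this was no separate check. The 4 members under the filter rest on at most 129 reads, and they were fitted by limma only without the filter, where none was called. A pseudocount of 0.1 moved the differences of ADORA1, ADORA2A and ADORA3 from 0.19, -0.059 and 0.011 to 0.45, -0.35 and 0.10. The size of these differences therefore depends on the pseudocount.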
